A study of Homo sapiens with 9 samples.

Results

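CLK1, CLK2, CLK3 and CLK4 are the 4 genes of the CDC-like kinase family, and the peaks on their transcripts were collected from antibody-barcode eCLIP (ABC), a method that ligates a barcode on each antibody to the RNA crosslinked to its RNA-binding protein (RBP). Every deposited peak that overlapped a CLK gene on the gene's strand was taken, which gave 749 of 2478204 peaks in 54 libraries, in 4 of the 21261 genes that had a peak read in the 10plex pools. Of these, 642 lay in the 50 libraries of the 10plex pools, in which DDX3, EIF3G, FAM120A, IGF2BP2, LIN28B, PRPF8, PUM2, RBFOX2, SF3B4 and ZC3H11A were profiled together in UV-crosslinked cells. There were 3 such pools of K562 cells, an erythroleukemia line, and 2 of HEK293 cells, an embryonic kidney line that the sample titles write HEK293T and the study's methods HEK293XT. The other libraries were singleplex, with a single antibody each, and were 2 of RBFOX2 in HEK293 cells and 2 of SLBP in K562 cells. Every pool was 1 lysate incubated with all 10 antibodies, and nothing in the labels says whether pools came from separate cultures. The p-values rest on the spread between libraries of the same RBP and line, after shifts shared by a pool are taken out. That spread is estimated over all RBPs and both lines together, and the p-values apply to these pools only.

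The cell line label of the HEK293 pools reads K562 and that of K562 replicate 3 reads K563, whereas the titles give the lines used here. Levels are given as RPM, the reads in peaks per 1000000 peak reads of the library. All 7 erythroid markers were higher in the K562 pools (GATA1 81.4 to 125 RPM against 0), and 3 of 4 HEK293 markers were higher in both HEK293 pools than in any K562 pool (NEFL 102 to 105 RPM against 0), while PAX2 overlapped (3.03 to 3.83 RPM against 0.63 to 4.55). The 30 libraries of the K562 pools held 13351 to 2191420 peak reads and the 20 of the HEK293 pools 24533 to 2837770. PUM2 was the shallowest and had 4 CLK peaks in all. SLBP, which binds histone mRNAs, had a single CLK peak with 3 reads. Reads outside called peaks were not analysed here, so a value of 0 means that no peak was called, not that no read was present.

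CLK kinases phosphorylate SR proteins, the serine and arginine rich splicing factors, and so tune splice site choice across the transcriptome. CLK1 transcripts are a textbook case of detained introns, meaning introns that stay in polyadenylated RNA held in the nucleus until a cue completes splicing, and the introns concerned flank exon 4. When exon 4 is skipped instead, the reading frame is lost before the kinase domain. Splicing at these introns depends on recognition of the 5′ splice site, where PRPF8 of the U5 particle sits in the catalytic core, and of the branch point and 3′ splice site, where SF3B4 belongs to the SF3b complex of the U2 particle.

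On GRCh38, CLK1 (ENSG00000013441.17) lies at chr2:200853009-200864691 on the minus strand, CLK2 (ENSG00000176444.19) at chr1:155262868-155278491 (minus), CLK3 (ENSG00000179335.20) at chr15:74598500-74645414 (plus) and CLK4 (ENSG00000113240.14) at chr5:178602664-178630615 (minus). In the MANE Select transcript, the reference isoform of GENCODE release 44, all 4 genes had 13 exons and 12 introns, and introns 3 and 4 flanked an exon 4 of 88 to 97 nt. Intron 3 was 1022, 692, 1894 and 1121 nt long in CLK1, CLK2, CLK3 and CLK4, and intron 4 was 378, 348, 277 and 395 nt. The annotation held 1 of 14 CLK1, 1 of 7 CLK2, 4 of 27 CLK3 and 2 of 13 CLK4 transcripts that skip exon 4. It also held 2, 1, 2 and 2 transcripts that keep intron 4, and 1, 0, 2 and 2 that keep intron 3, so none keeps intron 3 of CLK2. Introns 3 and 4 were chosen from this annotation for all 4 genes. They were not shown to be detained in these cells, since RNA levels were not measured.

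The 5′ splice sites of these introns are shown because PRPF8 was read there and because the first 6 bases, in capitals, differed between intron 3 and intron 4 of every gene (GRCh38, gene strand, 5′ to 3′).
CLK1 intron 3, chr2:200861208-200861237, minus: GTATGAacgtttttaaaacattttggaaat
CLK4 intron 3, chr5:178618526-178618555, minus: GTATGAttggttttgttttcaatttgagtg
CLK2 intron 3, chr1:155269458-155269487, minus: GTGAGTgccagcccaggcccttcctctccc
CLK3 intron 3, chr15:74620226-74620255, plus: GTGAGTggtagccagagtgtgctggctggg
CLK1 intron 4, chr2:200860095-200860124, minus: GTATAGaatatttttcaacacttattaact
CLK4 intron 4, chr5:178617314-178617343, minus: GTATAGaatatttttcaacactttttaaac
CLK2 intron 4, chr1:155268678-155268707, minus: GTACAAgccaaatcgtaacaatcctatagc
CLK3 intron 4, chr15:74622217-74622246, plus: GTACAGccacctttcgtaaaactttacctc
GTGAGT and GTAAGT were the most frequent starts of 240979 annotated introns, with 13.8% and 13.7% of them, and GTAAGT began 12 of the 48 CLK introns but none of these 8. CLK1 and CLK4 shared their starts at both introns. The starts of intron 4 were less frequent, with 0.231% of all introns for GTATAG, 0.259% for GTACAA and 0.588% for GTACAG. By frequency they ranked 58, 52 and 33 among starts of 6 bases. GTATGA of CLK1 and CLK4 intron 3 began 0.998% and ranked 19. The letters were read on the gene strand and describe these windows only.

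The 3′ ends of intron 4 are shown because SF3B4 was read there, with the terminal AG in capitals.
CLK1 intron 4 end, chr2:200859747-200859776, minus: atatgactgagatttatttctctcttttAG
CLK2 intron 4 end, chr1:155268360-155268389, minus: tctccccgaccctgctctctttcatttcAG
CLK3 intron 4 end, chr15:74622464-74622493, plus: ttctcatgcccaatttcttttctctcctAG
CLK4 intron 4 end, chr5:178616949-178616978, minus: cttacacctctttttccctcctcactctAG
Of the 28 bases before the AG, 19, 24, 24 and 25 were C or T in CLK1, CLK2, CLK3 and CLK4. The median of all introns was 20, with quartiles of 18 and 22, so CLK2, CLK3 and CLK4 lay above the upper quartile and CLK1 between the quartiles.

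At the level of whole genes, the question was which of the 10 RBPs held more CLK reads than the other 9 of the same pool. PRPF8 did in all 4 genes in K562 and in 3 of them in HEK293, and it held 40.9% to 62.8% of all CLK peak reads of a pool. It was the highest RBP in 3 of 5 pools for CLK1 and in 4 of 5 for each of the others, and first or second in all 5. In pooled cells, more bound RNA per cell, more cells with bound RNA and more transcript cannot be told apart. On CLK1, PRPF8 had 118, 135 and 112 RPM in the K562 pools and 104 and 117 in the HEK293 pools. SF3B4 on CLK1 had 10.98, 86.2 and 37.7 RPM in K562 and 135 and 143 in HEK293. The PRPF8 libraries thus lay close together in both lines, whereas the SF3B4 libraries of K562 spread widely and all lay below those of HEK293.

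On CLK2, PRPF8 had 246, 221 and 221 RPM in K562 and 476 and 332 in HEK293. SF3B4 on CLK2 had 62.2, 92.3 and 86.1 RPM in K562 and 305 and 268 in HEK293. RBFOX2 on CLK2 had 157, 151 and 162 RPM in K562 and 226 and 170 in HEK293, with 246 and 327 in the singleplex libraries. For PRPF8 and SF3B4 the HEK293 libraries of CLK2 lay above all K562 libraries, and RBFOX2 was above SF3B4 in K562 and below it in HEK293.

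On CLK3, PRPF8 had 55.0, 78.7 and 80.7 RPM in K562 and 101 and 75.8 in HEK293, and the lines overlapped. On CLK4 it had 62.9, 53.0 and 86.1 RPM in K562 and 77.9 and 86.2 in HEK293, which overlapped too. SF3B4 on CLK3 had 0, 45.1 and 16.1 RPM in K562 and 10.7 and 57.2 in HEK293. SF3B4 on CLK4 had 18.3, 45.1 and 32.3 RPM in K562 and 99.4 and 16.3 in HEK293, so its replicates spread more than those of PRPF8 in both genes.

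**Figure D1:**
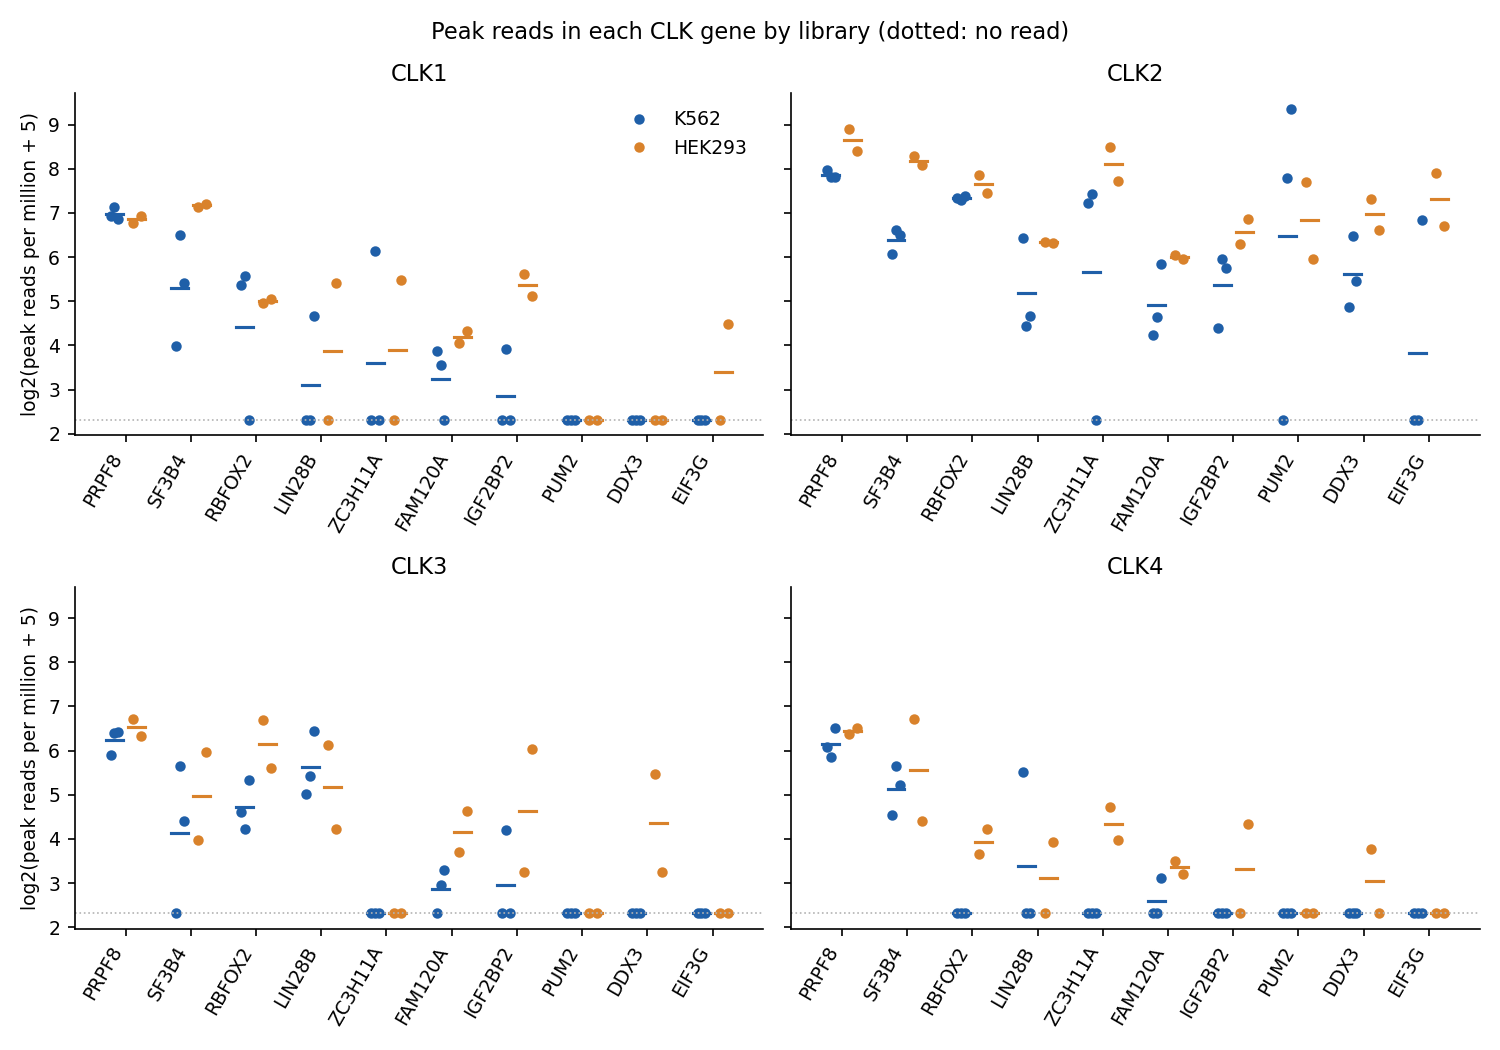
Peak reads in each CLK gene, as log2(RPM + 5), for each RBP. Points are libraries, short bars are means, K562 (n = 3) is blue and HEK293 (n = 2) is orange, and the dotted line marks no peak. PRPF8 had a peak in every gene and pool, and PUM2, DDX3 and EIF3G had none in most libraries of CLK1, CLK3 and CLK4.

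Each RBP was tested against the mean of the other 9 on log2(RPM + 5), where log2 differences of low values are understated, with limma and Benjamini-Hochberg adjustment over 15328 genes. PRPF8 was higher in K562 by log2 3.70 ± 0.62 (SE) for CLK1 (limma adjusted p = 1.5e-05), 2.23 ± 0.87 for CLK2 (0.038), 2.95 ± 0.51 for CLK3 (2.3e-05) and 3.37 ± 0.45 for CLK4 (5.6e-07). All 4 genes were thus called, where 39% of all genes tested were called higher. In HEK293, 3 of 4 were called, against 24.5% of all genes, with 2.68 ± 0.76 for CLK1 (limma adjusted p = 0.0090), 2.48 ± 0.63 for CLK3 (0.0034) and 2.96 ± 0.56 for CLK4 (0.00016). For CLK2 there, several other RBPs were also high (ZC3H11A 354 and 208 RPM), and the difference of 1.55 ± 1.06 was not called (limma adjusted p = 0.30). With library sizes scaled by the upper quartile it was (2.08, limma adjusted p = 0.042). The CLK2 call in K562 was lost with pseudocount 1 (limma adjusted p = 0.0747), with no filter (0.057), with touching peaks counted as 1 (0.070) and in the fits that left out K562 replicate 1 or 2 or either HEK293 replicate (0.103 to 0.109). The CLK1 call in HEK293 was lost without replicate 1 (2.30, limma adjusted p = 0.19) and without replicate 2 (3.07, 0.064).

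SF3B4 was called higher in CLK4 in K562 (2.24 ± 0.45, limma adjusted p = 0.00094, where 7.92% of all genes were called higher). In HEK293 it was called in CLK1 (3.03 ± 0.76, limma adjusted p = 0.0057) and CLK4 (1.98 ± 0.56, 0.013), against 7.31% of genes. CLK1 in K562 lay at the threshold (1.84 ± 0.62, limma adjusted p = 0.050) and was called with upper quartile library sizes (2.24, 0.012). The CLK4 value in HEK293 rested on replicate 1, with 99.4 RPM against 16.3 in replicate 2, and was 0.73 without it (limma adjusted p = 0.61), while that of CLK1 was 2.60 (0.15). The CLK4 call in K562 was lost without K562 replicate 2 (1.90, limma adjusted p = 0.068).

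Only 2 calls of a higher level belonged to other RBPs. LIN28B, which blocks let-7 maturation and binds many mRNAs, was higher on CLK3 in K562, where it had 27.3, 38.0 and 81.4 RPM (2.27 ± 0.51, limma adjusted p = 0.0015; 12.1% of genes called). RBFOX2, a splicing regulator, was higher on CLK3 in HEK293, with 98.6 and 43.9 RPM (2.07 ± 0.63, limma adjusted p = 0.012; 25.7% of genes called). Each was lost without 1 library, LIN28B without K562 replicate 3 (1.91, limma adjusted p = 0.071) and RBFOX2 without HEK293 replicate 1 (1.46, 0.17).

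Of 80 comparisons of an RBP in a CLK gene and line, 12 were called higher and 10 lower, that is 15% and 12.5%, beside 12.2% and 11.4% over all genes. The lower ones belonged to EIF3G (4), PUM2 (4), DDX3 (1) and ZC3H11A (1), and 9 of the 10 concerned genes with no peak of that RBP in any library of the line. Lower calls made up 25.9% of all genes for EIF3G and 36.1% for PUM2 in K562, and 27.5% and 55.4% in HEK293. For DDX3 and ZC3H11A in HEK293 they made up 3.42% and 16.6%. The remaining case was EIF3G, an initiation factor subunit, on CLK2 in K562, with 0, 0 and 110 RPM, and it was lost in 7 of 12 other fits. The calls of EIF3G, PUM2 and ZC3H11A on CLK3 in HEK293 held in all other fits, which share the same absence of a peak. In HEK293 replicate 2, a peak of 3 reads stood for 56.9 RPM in PUM2, 17.6 in EIF3G and 10.7 in ZC3H11A. A level below that would give no peak, so these calls mark missing peaks and not a measured lower level. The other 7 were each lost without 1 of 2 or more replicates (limma adjusted p of 0.0504 to 0.47), namely any K562 replicate for EIF3G and PUM2 on CLK3 in K562, K562 replicate 1 or 2 or either HEK293 replicate for EIF3G on CLK2, K562 replicate 2 or either HEK293 replicate for EIF3G on CLK4, K562 replicate 1 or either HEK293 replicate for DDX3 on CLK1, and either HEK293 replicate for PUM2 on CLK1 and CLK4.

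No difference between HEK293 and K562 was called in 40 gene and RBP comparisons by limma's interaction test (lowest adjusted p = 0.22, 1 with an unadjusted p below 0.05), where 7.5% of all such comparisons over genes were called. With 3 pools against 2 this leaves wide margins, and it does not show that the lines were alike.

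Of the other genes of the pathway, 5 of 6 SR protein kinases, all 14 SR proteins and all 4 further genes known for retained introns could be tested. PRPF8 was called higher in K562 in 2 of the kinases, 7 of the SR proteins and 2 of the retained intron genes, beside 39% of all genes, and in HEK293 in 1, 1 and 0, beside 24.5%. None was called lower. The shares in K562 lay near that of all genes, and those in HEK293 below it. The median difference of PRPF8 in K562 was 1.501, 1.40 and 1.65 in these lists and 3.16 in the CLK genes, beside 0.65 over all genes tested. In HEK293 it was 1.101, 0.41 and 0.46, with 2.58 in the CLK genes and 0.71 over all genes. MAT2A, the methionine adenosyltransferase with a regulated detained intron, had PRPF8 higher by 2.51 ± 0.60 and SF3B4 by 2.03 ± 0.60 in K562 (limma adjusted p = 0.00088 and 0.022). OGA, the enzyme that removes O-GlcNAc, had PRPF8 higher by 1.64 ± 0.55 (limma adjusted p = 0.016), and the value for its counterpart OGT was 1.66 ± 0.75 (0.076). PRPF4B, a kinase of the spliceosome, had PRPF8 higher by 2.91 ± 0.78 (limma adjusted p = 0.0029), and DYRK1B, a DYRK family kinase, by 1.501 ± 0.38 (0.0018). SRPK2, the third by p in that list, had 2.004 ± 0.88 (limma adjusted p = 0.068). SRSF10, TRA2B and SRSF7 had PRPF8 higher by 1.98 ± 0.51, 1.89 ± 0.64 and 2.36 ± 0.80 (limma adjusted p = 0.0019, 0.016 and 0.017). SF3B4 was called lower on DYRK1A in K562 (-2.22 ± 0.72, limma adjusted p = 0.039; 3.39% of genes called lower).

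Within the CLK genes, SF3B4 reads gathered at the end of intron 4. In the last 100 nt of intron 4 of CLK2, SF3B4 had 36.6, 51.3 and 37.7 RPM in K562 (10, 25 and 7 reads) and 149 and 38.8 in HEK293 (42 and 19 reads). The window had SF3B4 reads in all 5 pools and reads of another RBP in 0 of 45 libraries. In CLK4 it had 17.2, 20.1 and 16.1 RPM in K562 and 27.0 and 0 in HEK293.

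CLK1 intron 4 ended with 0, 12.3 and 21.5 RPM of SF3B4 in K562 and 47.8 and 35.4 in HEK293. In CLK3 it had 0 in all 3 K562 pools and 10.7 and 0 in HEK293, from 3 reads. By mean level, the end of intron 4 was the highest of the 12 intron ends in CLK1, CLK2 and CLK4 in both lines. In CLK3 it was the highest in HEK293 only, while in K562 intron 5 was highest with 20.5 RPM in 1 pool and 0 in the others. The last 100 nt of intron 3 had an SF3B4 peak in 1 gene and library, CLK2 in HEK293 replicate 2 (30.6 RPM, 15 reads).

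**Figure D2:**
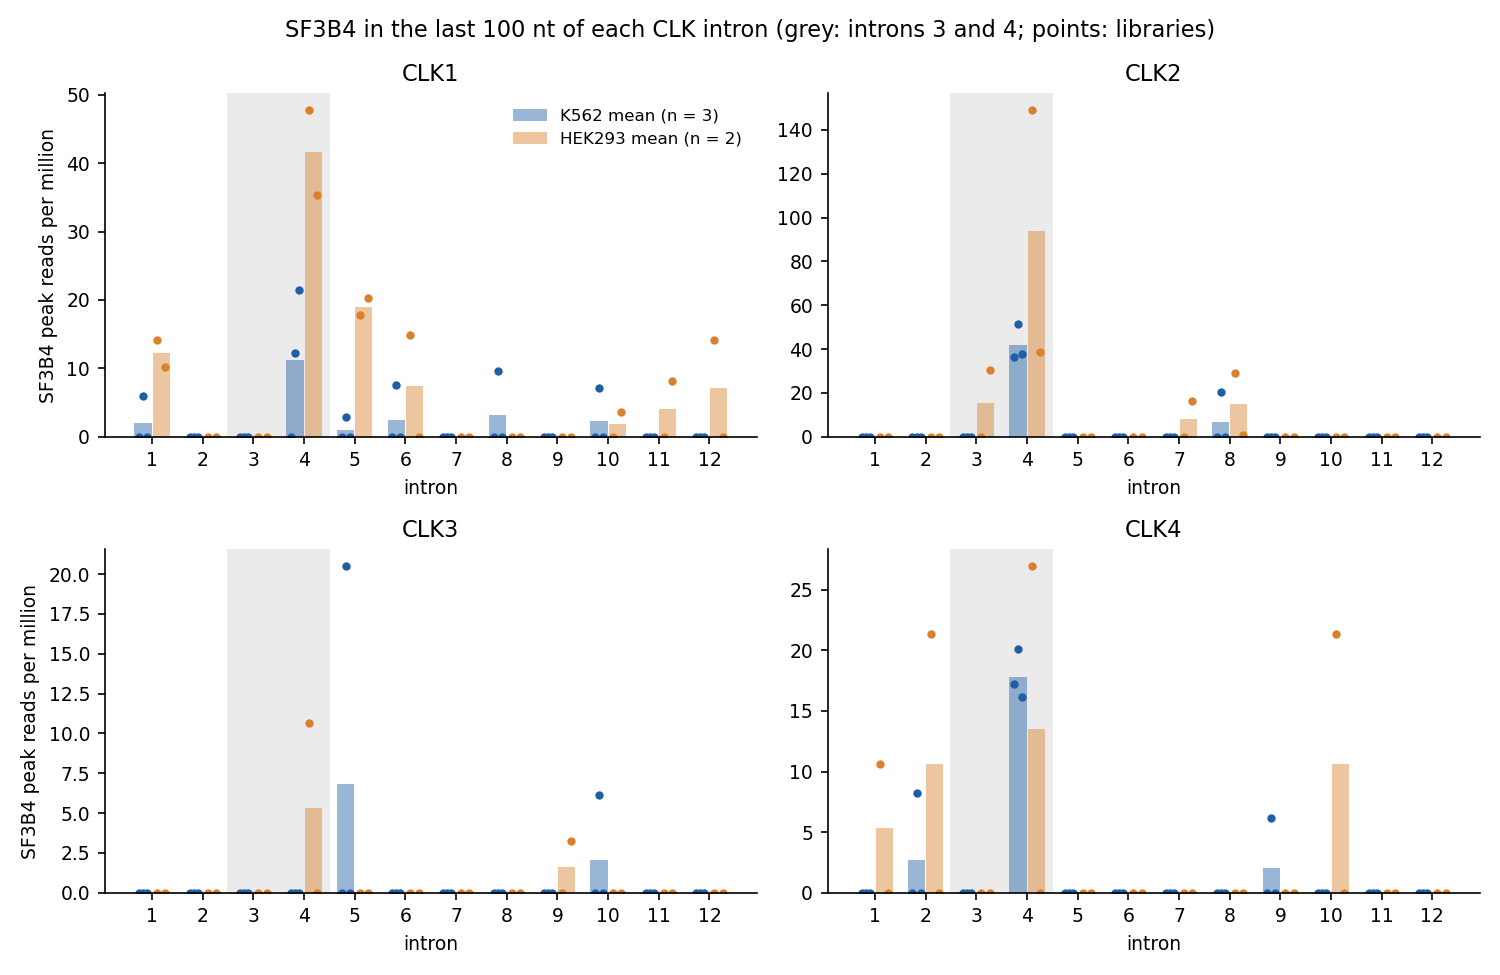
SF3B4 level in RPM over the last 100 nt of each of the 12 introns of each CLK gene. Bars are means, points are libraries, K562 (n = 3) is blue and HEK293 (n = 2) is orange, and introns 3 and 4 are shaded. The highest mean stands at intron 4 in CLK1, CLK2 and CLK4 in both lines.

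Of the 48 CLK intron ends, 4 passed the filter of at least 5 reads in 3 libraries, namely introns 4 and 5 of CLK1 and introns 3 and 4 of CLK2. Without the SF3B4 libraries only CLK2 intron 3 would have passed, so a difference at the other 3 was fixed by the filter, and their values are given with no test. Of all 2999 windows, 73.8% were called higher for SF3B4 in K562 and 74% in HEK293. At CLK2 intron 4, SF3B4 exceeded the mean of the other RBPs by 3.21 ± 0.15 (SE, log2 scale) in K562 and 4.04 ± 0.19 in HEK293. At CLK1 intron 4 the values were 1.40 ± 0.20 and 3.20 ± 0.24. These SEs rest on the spread over all 50 libraries, most with no reads there, so they can understate that of the SF3B4 libraries.

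Intron 4 was also set against the other intron of its gene that passed, which was intron 3 in CLK2 and intron 5 in CLK1. The value of CLK2 intron 4 exceeded that of intron 3 by 3.36 in K562 and by 3.22 in HEK293, where it was 0.96 without replicate 1. In CLK1, intron 4 exceeded intron 5 by 1.25 in K562 and by 0.99 in HEK293. The filter chose these pairs through the same reads, so they are a description of 1 intron beside 1 other, with no test.

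The SF3B4 difference was larger in HEK293 than in K562 by 0.82 ± 0.24 at CLK2 intron 4 (limma adjusted p = 0.0050). In this comparison 47.3% of all windows were called. The SE and p rest on the spread over all libraries, and the 45 of the other RBPs had no reads in this window. They thus understate the spread of the SF3B4 libraries, which had 149 and 38.8 RPM in HEK293. The CLK2 call was lost without K562 replicate 1 (0.75, limma adjusted p = 0.054) and with touching peaks counted as 1 (0.59, 0.051), and the value was -0.08 without HEK293 replicate 1. At CLK1 introns 4 and 5 the values were 1.80 ± 0.31 and 2.07 ± 0.19. Intron 4 passed the filter with 2 HEK293 libraries and 1 of K562, and intron 5 through HEK293 libraries only, so neither has a test.

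Peaks of SF3B4 at intron 4 lay at nearly the same place in all pools in CLK2 and over a wider span in CLK1 and CLK4. In CLK2 their centres were 48 nt before the end of the intron in all 3 K562 pools and in HEK293 replicate 1, and 42 nt in replicate 2. In CLK1 the nearest peak was centred 34 and 31 nt before the end in K562 and 44 and 67 nt in HEK293. In CLK4 the distances were 23, 26 and 53 nt in K562 and 79 nt in HEK293. The peaks of CLK1 and CLK2 ended before the splice site, whereas those of CLK4 in K562 replicates 1 and 2 reached past it.

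**Figure D3:**
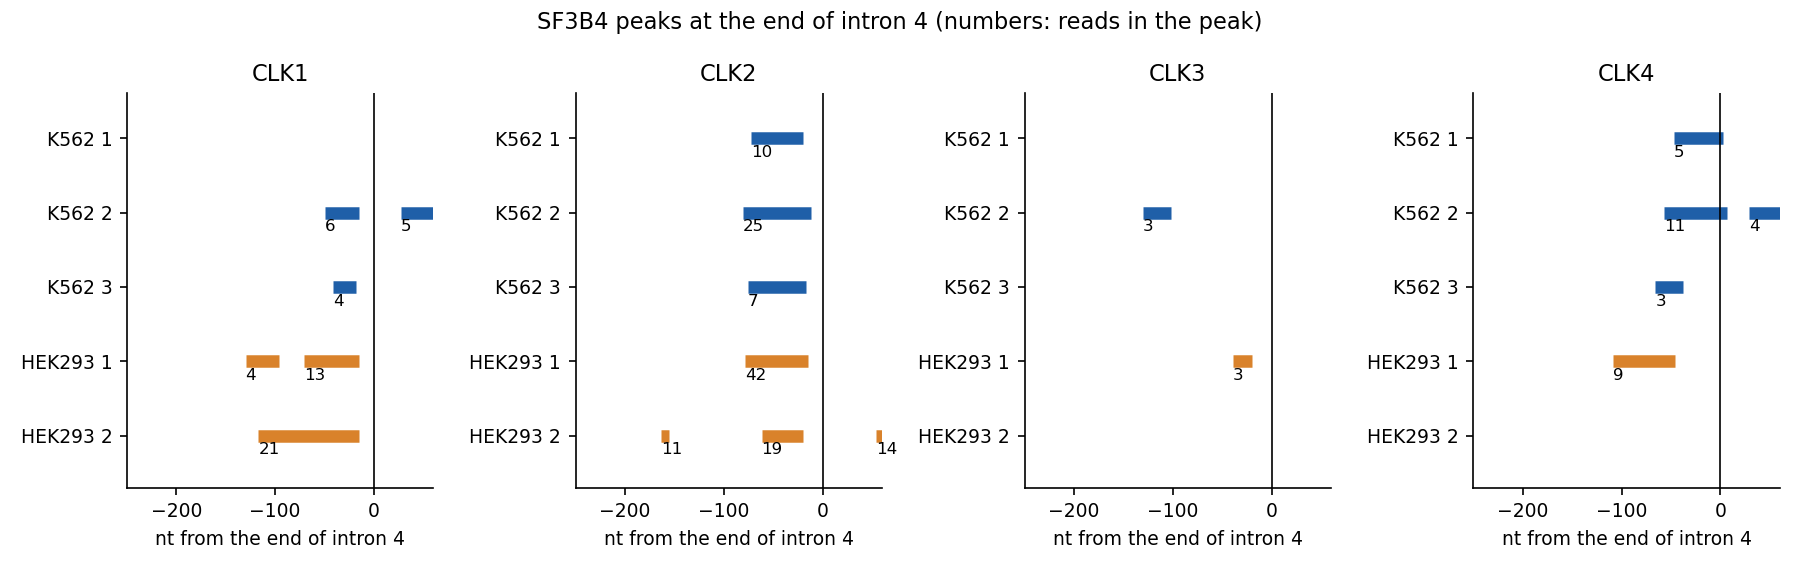
SF3B4 peaks near the end of intron 4, as distance in nt from the last base of the intron (black line), for each 10plex library. Bars span the merged peaks and the numbers are their reads, K562 in blue and HEK293 in orange. In CLK2 all 5 libraries have a peak 42 to 48 nt before the end.

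Peaks were also compared with the complement control, the summed reads of the other 9 RBPs of the same pool, and were called enriched at P below 0.001 and a fold above 8. Of the 642 peaks, 84 were enriched, or 13.1%, beside 11.4% of all peaks of the 10plex libraries. They were 42 of the 204 PRPF8 peaks, or 20.6% beside 15.4% of all PRPF8 peaks, 25 of the 81 SF3B4 peaks, or 30.9% beside 20.7%, and 17 of other RBPs. The shares in the CLK genes lay above those of all peaks, and the differences were not tested. For SF3B4, 24 of the 25 were intronic. Intron 4 held 8 of its 14 enriched peaks in K562 and 6 of 11 in HEK293, while none of the 11 SF3B4 peaks in intron 3 was enriched. The CLK2 intron 4 peak was enriched in 3 of 3 K562 pools, with a mean log2 fold of 4.12 ± 0.13 (SD). That of CLK4 was enriched in 3 of 3, with 5.45 ± 1.31, and that of CLK1 in 2 of 3, with 4.62 and SD 0.57. In HEK293, 1, 1 and 2 of 2 pools had them, and CLK3 had 1, of 3 reads.

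Per library, SF3B4 had 4.67 ± 3.79 enriched CLK peaks in K562 (SD, n = 3) and 5.50 ± 4.95 in HEK293 (n = 2), and PRPF8 had 7.67 ± 4.16 and 9.50 ± 4.95. The counts per pool were 3, 11 and 9 for PRPF8 in K562 and 13 and 6 in HEK293, and 2, 9 and 3 and 9 and 2 for SF3B4, so the replicates differed several-fold. K562 replicate 3 was called by its deposited fold and P, a stricter rule than the chi-squared values used for the other pools. A peak counted only where a whole number of control reads gave the deposited statistic, which left out 97 peaks. With these kept, 101 peaks were enriched. None of the 128 RBFOX2, 28 DDX3, 9 EIF3G and 76 FAM120A peaks was enriched, beside 3.41%, 11.9%, 19.2% and 12.4% of all peaks of these RBPs.

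As a share of the reads within the MANE Select transcripts of the 4 genes, introns 3 and 4 held 60.7% ± 19.6 of SF3B4 reads in K562 (SD, n = 3; 43.7% to 82.1%) and 43.8% ± 14.7 in HEK293 (n = 2; 33.4% and 54.2%), beside 10.04% of the length of these transcripts with their introns. In CLK2 the share was 76.1% ± 6.66 in K562 and 51.4% ± 17.8 in HEK293, beside 9.78% of length, and in CLK1 47.9% ± 22.2 and 40.5% ± 6.06, beside 12.02%. The CLK1 shares in the K562 pools were 64.1%, 22.6% and 57.1%, from 3, 42 and 7 reads, and the first came from part of 1 peak in intron 3. In CLK3, where length gives 15.1%, the share was 0% and 13.6% in the 2 K562 pools with reads, and 100% (3 reads) and 10.7% in HEK293. In CLK4, where length gives 6.22%, it was 94.1%, 44.6% and 50% in K562, from 5, 22 and 6 reads, and 32.1% and 0% in HEK293. For SF3B4 it was thus above the share of length in every pool in CLK1 and CLK2, in all but 1 pool in CLK4, and in 1 of the 4 pools with reads in CLK3. PRPF8 had 14.0% ± 2.59 of its reads in introns 3 and 4 of all 4 genes in K562, with each pool above the share of length, and 9.53% ± 2.47 in HEK293, with a pool on either side of it. In CLK2 PRPF8 had 18.7% ± 2.71 and 12.6% ± 3.44. Over the 4 genes together, the SF3B4 libraries were all above the PRPF8 libraries of their line.

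PRPF8 showed another layout over the first 100 nt of the introns, with reads at several introns of each gene. CLK2 intron 3 was the highest start in its gene, with 36.1, 21.4 and 35.1 RPM in K562 and 41.5 and 21.1 in HEK293. CLK1 intron 3 was the highest in its gene in K562, with 15.3, 21.5 and 9.15 RPM, but not in HEK293, with 3.03 and 7.73. In CLK3 and CLK4 the highest starts were those of introns 7 and 10, in both lines. CLK4 intron 10 had 22.4, 17.3 and 20.6 RPM in K562 and 10.5 and 10.5 in HEK293, while intron 3 of CLK4 reached at most 2.98.

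The start of intron 4 had little PRPF8. It held no PRPF8 peak in CLK1 and CLK4 in any of the 5 pools, and 2.52 and 3.19 RPM in 2 K562 pools in CLK3. In CLK2 it held 0 RPM in all 3 K562 pools and 11.95 and 12.6 in HEK293. The HEK293 minus K562 change at CLK2 intron 4 was 1.74 ± 0.35 on the log2 scale. The window passed the filter described next through HEK293 libraries only, so this change has no test, and 50.2% of all windows were called in this comparison.

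**Figure D4:**
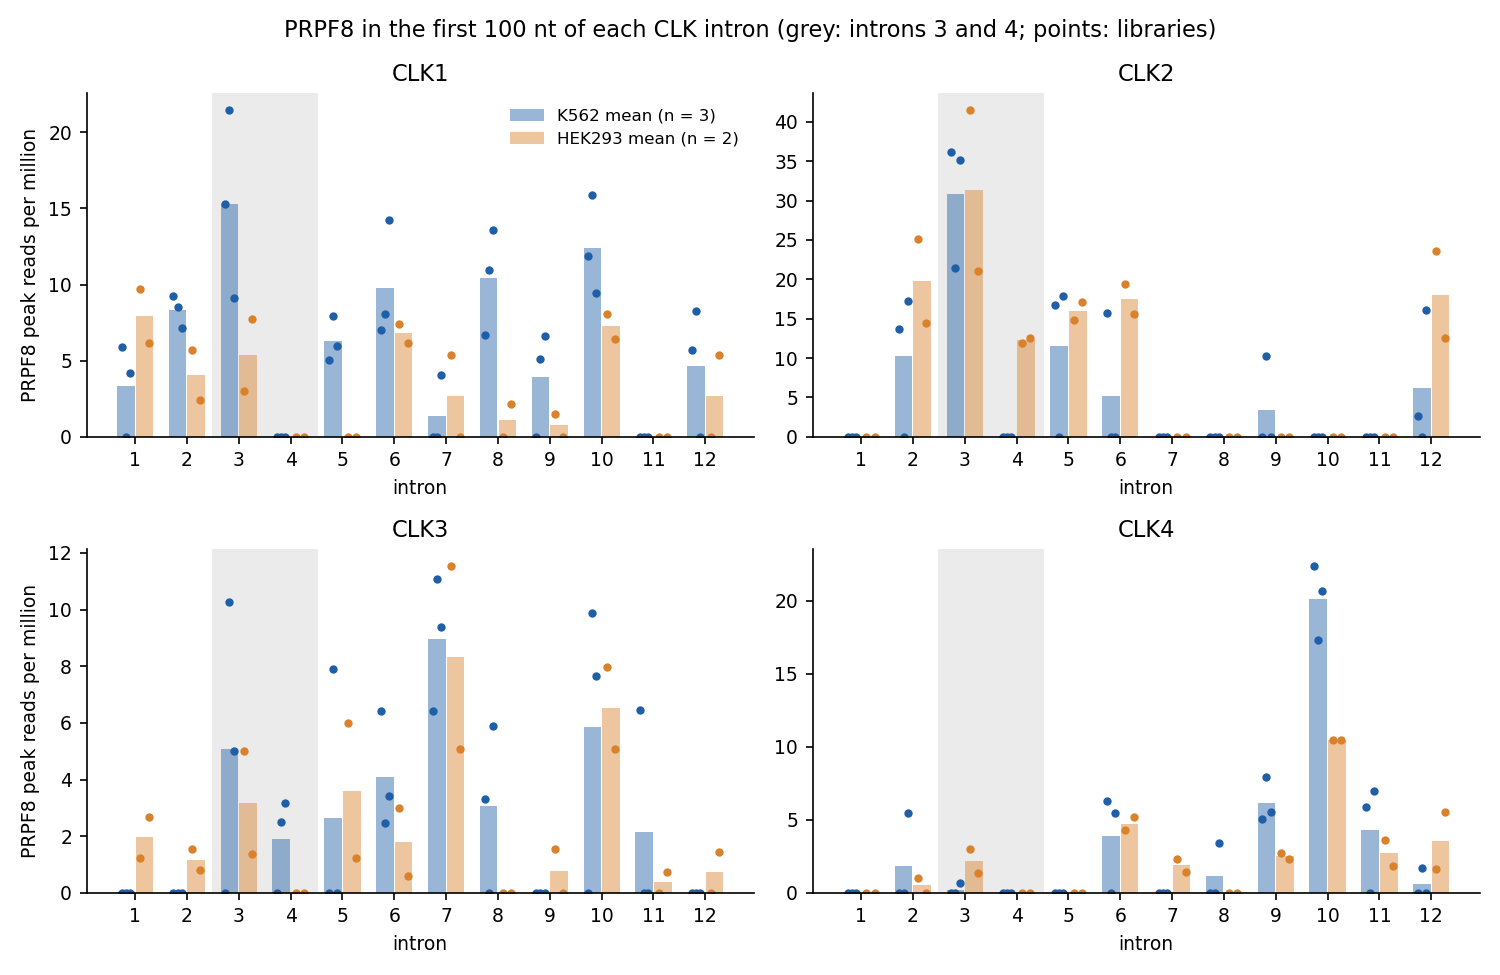
PRPF8 level in RPM over the first 100 nt of each of the 12 introns of each CLK gene. Bars are means, points are libraries, K562 (n = 3) is blue and HEK293 (n = 2) is orange, and introns 3 and 4 are shaded. Intron 3 is highest in CLK2 in both lines and in CLK1 in K562, intron 10 is highest in CLK4, and intron 4 is empty in CLK1 and CLK4.

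Of the 48 starts, 14 passed the filter of at least 5 reads in 3 libraries, of which 3 lay beside exon 4. Without the PRPF8 libraries only CLK2 intron 3 would have passed, so a higher level of PRPF8 at the other 13 was fixed by the filter, and their calls are not counted here. Of all 15334 windows, 91.5% were called higher for PRPF8 in K562 and 82% in HEK293. CLK2 intron 3 was higher by 2.35 ± 0.27 in K562 (limma adjusted p = 2.0e-09) and 2.53 ± 0.33 in HEK293 (6.0e-08). Against the other tested introns of CLK2, its value was higher by 1.51 in K562 and by 0.50 in HEK293. The HEK293 value was 0.39 with pseudocount 20, 1.27 with peaks assigned by their centre and 1.26 with no filter on low values. CLK2 intron 4 stood below the others with -1.40 in K562 and -0.54 in HEK293, and at 0.30 in HEK293 with no filter. These values against other introns of CLK2 have no test, since most or all of the others had passed through PRPF8. CLK1 intron 3 was higher than the others by 0.52 in K562, with -0.31 in HEK293. The HEK293 value was -1.19 with peaks assigned by their centre, -0.64 without HEK293 replicate 2 and 0.22 with no filter. These have no test either, since all tested starts of CLK1 had passed through PRPF8.

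The CLK1 intron 3 value in K562 was 0.66 at pseudocount 1 and 0.25 without K562 replicate 2. It was 0.072 and 0.26 without HEK293 replicate 1 or 2. The PRPF8 peak of CLK1 intron 3 lay just under the 8-fold limit over the complement control in all 3 K562 pools. Its log2 folds were 2.77, 2.99 and 2.96, with 9, 19 and 13 reads. The PRPF8 peaks that were enriched in all 5 pools were at intron 10 of CLK1 and CLK4. That of CLK4 had 14, 13 and 22 reads in K562 and 20 and 29 in HEK293, with a mean log2 fold of 5.01 ± 1.05 (SD) in K562. That of CLK1 had 8, 13 and 9 reads and 15 and 18 reads, with 4.42 ± 1.098. Their centres were 8 to 27 nt after the 5′ splice site, and intron 10 held 12 of the 42 enriched PRPF8 peaks.

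RBFOX2 peaks covered much of CLK2 intron 3. This protein binds GCAUG and regulates neighbouring exons. Its peak with the most reads in the singleplex libraries covered a GCATG 408 nt after the 5′ splice site, shown with the motif in capitals.
CLK2 intron 3 site, chr1:155269064-155269092, minus: gcattgtgtagaGCATGgggttgtgggtg
The peak had 345 and 169 reads in the singleplex libraries, 138 and 76 in the 10plex HEK293 libraries and 9 and 21 in K562 replicates 1 and 2. In K562 replicate 3 the nearest peak, of 4 reads, ended short of the motif. The log2 fold over the external background was 5.30 and 5.12 in the singleplex libraries, 5.09 and 3.97 in HEK293 and 5.59 and 6.13 in K562. Over the complement control it was 1.74 to 2.35 in the 10plex libraries, so RBFOX2 did not reach 8-fold there. PRPF8 had a peak over the same stretch in HEK293 replicate 1 (23 reads) and K562 replicate 2 (7 reads), and the part of such reads in the control was not tested.

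**Figure D5:**
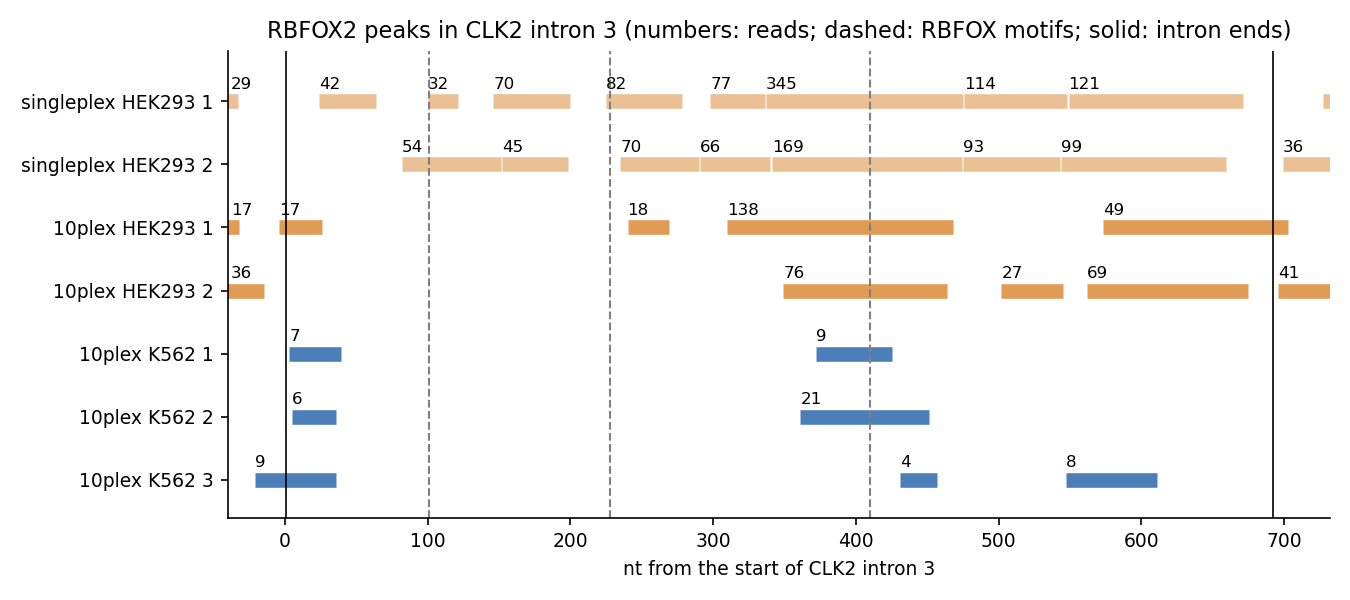
RBFOX2 peaks in CLK2 intron 3, as distance in nt from the start of the intron, in the 2 singleplex and 5 10plex libraries. Bars span the merged peaks, the numbers are their reads, dashed lines mark the 3 RBFOX motifs, and solid lines mark the ends of the intron. The motif 408 nt in is covered in 6 of the 7 libraries.

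Intron 3 of CLK2 held 883 and 596 RBFOX2 reads in the singleplex libraries, which with intron 4 was 81.2% and 83.4% of all CLK2 reads. The 10plex shares were 55.4% and 36.5% in HEK293 and 21.9%, 27.3% and 29.8% in K562. In its last 100 nt, RBFOX2 was higher than the other RBPs in HEK293 by 1.82 ± 0.48 (limma adjusted p = 0.0076, 10.1% of windows called). The HEK293 minus K562 change was 1.53 ± 0.62, with 2.23 under upper quartile library sizes and 1.88 without HEK293 replicate 2. The window passed the filter with 4 HEK293 libraries and 1 of K562, so this change has no test. Singleplex RBFOX2 peaks covered the other GCATG sites of the intron, 99 and 226 nt in, in 2 and 1 libraries, and 10plex peaks covered neither. On the gene strand, 47.97% of the 14199 annotated introns of 600 to 800 nt held a GCATG, so the presence of the letters alone is common. CLK3 intron 3 held 7 of them, none covered in more than 2 libraries, and intron 3 of CLK1 and CLK4 and intron 4 of all 4 genes held none.

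Outside the introns, LIN28B had a peak in exon 3 of CLK3, just before the introns studied, in the coding sequence at chr15:74620045-74620163 (plus). It was enriched over the complement control in all 5 pools, with 4, 9 and 6 reads in K562 and 9 and 4 in HEK293 and a mean log2 fold of 4.52 ± 0.82 (SD) in K562. All 5 peaks covered this GGAGA, the letters that LIN28 is known for, in capitals.
CLK3 exon 3 site, chr15:74620082-74620110, plus: agcccatcctttGGAGAggactactatgg
Of 19974 exons within 10% of its length of 217 nt, 38.6% held a GGAGA on the gene strand. In the 4 CLK genes, 6 of 30 LIN28B peaks were enriched, or 20%, beside 27.1% of all LIN28B peaks. CLK2 and CLK3 have processed pseudogenes, and the study kept only uniquely mapped reads. Reads of their exons may thus be missing or placed on a copy, which was not examined.

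PUM2, which represses mRNAs through their 3′ UTRs, was enriched at the 3′ UTR of CLK2 in K562 replicates 2 and 3 (4 and 11 reads) and HEK293 replicate 1 (5 reads), with a mean log2 fold of 5.67 ± 0.66 in K562. All 3 peaks covered this Pumilio motif of the form TGTANATA, in capitals.
CLK2 3′ UTR site, chr1:155263014-155263043, minus: aacccctgcctTGTACATAatactattcca
The last exon of CLK2 had 2 such motifs, and 4.84% of 3740 last exons within 10% of its length held 1 or more on the gene strand. The fourth PUM2 peak in a CLK gene, in HEK293 replicate 2 on CLK2, had 3 reads and was not enriched. Over all genes, 18.4% of PUM2 peaks were enriched. ZC3H11A, an mRNA export factor, had 6 enriched peaks of 29, or 20.7% beside 12.4% of all its peaks. They were all in exons and each in 1 pool only. In CLK1 the ZC3H11A peak lay in the 3′ UTR in K562 replicate 2 (7 reads, log2 fold 5.80), and CLK2 had 4 in exons 12 and 13. IGF2BP2 had 2, of 5 and 4 reads, in CLK2 exon 7 and in CLK3 outside the MANE Select transcript. These were 3.77% of its 53 CLK peaks, beside 6.15% of all IGF2BP2 peaks.

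The genes most like each CLK gene were looked for over 20 means of RBP and line among the 15328 genes, by Pearson's r. They were MAMDC4 (0.93), TEPSIN (0.92) and ATG16L2 (0.92) for CLK1, and MYBBP1A (0.89), MTA1 (0.87) and SGSM2 (0.85) for CLK2. For CLK3 they were TOP1MT (0.97), TADA2A (0.94) and HIBCH (0.94), and for CLK4 MUTYH (0.94), ZNF224 (0.94) and RPS26 (0.92). No CLK gene was among the 3 nearest of another. The means share libraries and depth, so these values are a description.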

How the data were processed

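Peaks came from 54 ABC libraries (9 samples). Per the labels and methods, the authors trimmed reads with cutadapt 2.8, aligned them to GRCh38 with STAR 2.7.6, removed PCR duplicates and called peaks per library with CLIPper, so replicates were not pooled. The deposited peak files hold the CLIPper p-value per peak, and some hold a display score that the authors derived from it. The deposited merged peaks hold the −log10 P and the log2 fold over an external background, which the authors computed from whole reads, and in 10plex files a statistic against the complement control. Where these were the authors' chi-squared values, control reads were solved from them as whole numbers. The solving was tried in K562 replicate 3, on chi-squared values computed by the same formula from the deposited fold. There the solved direction was the same for 98.1% of 14509 peaks and the control reads were equal for 98.5% of 13159. This is a check of the solving only and not of the authors' chi-squared values, of which 97 of 534 in the CLK genes had no whole-number solution. K562 replicate 3 was called by its deposited fold and P, and the other pools by the chi-squared value and solved reads. Of 3088 calls recovered in replicate 3 by the second rule, 18.1% did not pass the deposited limits, so replicate 3 had the stricter rule.

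Reads were recovered from the deposited values and shared out to genes, exons and introns by overlap on the gene's strand (GENCODE 44, GRCh38). Features with at least 5 reads in 3 libraries were tested as log2(RPM + 5) with limma 3.58.1 (R 4.3.3; lmFit, eBayes with trend) with RBP and line as groups and the pool as a block. The main tests set each RBP against the other 9 in its line, the lines against each other, and an intron against the others of its gene (diffSplice), with Benjamini-Hochberg adjustment over all features and a threshold of 0.05. Values against the other introns are given without p, since the filter chose most of those introns through the RBP tested. Deviations of libraries of 1 pool correlated at a mean r of 0.0329 to 0.0978, and the pool is 1 lysate by the protocol. On simulated data for K562, 34.8% of 4-fold and 100% of 16-fold changes of PRPF8 were recovered over 13815 genes, 36.7% and 100% over 5009 intron starts, and 47.3% and 97.7% for SF3B4 over 2428 intron ends. Of the simulated calls, 0%, 10.3% and 11.2% were false. Tables and figures used Python 3.11.15, pandas 2.3.3, numpy 2.4.6, SciPy 1.17.1 and matplotlib 3.10.9.

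The members, lists and tests were chosen with earlier results of these data known. Named besides the CLK introns 3 and 4 were the intron with the highest K562 level per gene, the peak enriched in most K562 pools per gene and RBP, the 3 nearest profiles and the 3 pathway genes of lowest p per list. Depth limits the precision, since many CLK values rest on under 10 reads.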

Additional observations from a re-analysis of the deposited data

Results flagged for a closer look

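The cases here are changes between the lines in the difference of an RBP from the other 9, called by limma's interaction test. They are given as HEK293 minus K562 on the log2(RPM + 5) scale with SE. Such calls were made for 50.2% of all intron starts with PRPF8 and 47.3% of all intron ends with SF3B4, so they are common. Each SE and p rests on the spread over all 50 libraries, most with no reads in the window. They can thus understate the spread of the RBP tested. PRPF8 at CLK2 intron starts was higher in HEK293 by 1.27 ± 0.27 at intron 12, 1.48 ± 0.38 at intron 6, 1.74 ± 0.35 at intron 4 and 0.88 ± 0.34 at intron 2 (limma adjusted p = 0.030). On CLK1 it was lower by -0.49 ± 0.09 at intron 10 (limma adjusted p = 1.3e-05), -1.04 ± 0.32 at intron 3 and -0.62 ± 0.13 at intron 2, with 0.63 ± 0.18 at intron 1. On CLK4 intron 10 it was lower by -0.69 ± 0.07 (limma adjusted p = 5.3e-10). Among the PRPF8 starts with a p, the value was thus higher in HEK293 at CLK2 intron 2 and lower at intron 10 of CLK1 and CLK4. SF3B4 at intron ends was higher in HEK293 by 2.07 ± 0.19 at CLK1 intron 5, 1.80 ± 0.31 at CLK1 intron 4 and 0.82 ± 0.24 at CLK2 intron 4 (limma adjusted p = 0.0050). The windows with no p passed the filter only or mostly through libraries of the line where they were higher, so it favoured their direction. The value at CLK2 intron 4 was -0.08 without HEK293 replicate 1, 0.75 without K562 replicate 1 (limma adjusted p = 0.054) and 0.59 with touching peaks counted as 1 (0.051). Without K562 replicate 2 the PRPF8 values at CLK2 intron 2 and CLK1 intron 3 were 0.22 (limma adjusted p = 0.51) and -0.85. That at CLK2 intron 2 was 0.63 and 1.13 without HEK293 replicate 1 or 2, and 1.55 with pseudocount 1 (limma adjusted p = 0.085). The CLK2 intron 2 call was lost in 4 of 12 other fits, whereas those at intron 10 of CLK1 and CLK4 held in all 12.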

How the results depend on the processing

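Alternatives covered the pseudocount, the filter, the library size, the pool block, the PUM2 libraries, the window, the share of a peak given to a feature, the limits for enrichment and each replicate in turn. Counting touching peaks as 1 and the handling of unsolved peaks were added after seeing the data. Single values kept direction and call in 932 of 1008 cases. The filter itself fixed most window calls, so their counts describe the settings only. With no filter on low values the counts of called CLK windows were 30 and 27 for PRPF8 (13 and 14 with the filter, K562 and HEK293) and 9 and 15 for SF3B4 (2 and 3), with 17 against other introns (9) and 22 and 11 between lines (9 and 3), and PRPF8 in HEK293 against the other introns turned to 0.30 at CLK2 intron 4 and 0.22 at CLK1 intron 3. A 50 nt window gave 3 calls against other introns. Assigning a peak by its centre gave -0.21 for PRPF8 at CLK1 intron 3 in HEK293 and a PRPF8 share of 17.5% in introns 3 and 4 in K562. Enriched PRPF8 peaks per library in K562 and HEK293 were 3 and 3.5 at P below 1e-05 and fold above 16, 16.3 and 31 with any fold, and 26.7 and 38 against the external background, with 14.5 in HEK293 if unsolved peaks were kept. For SF3B4 they were 7.33 and 19.5 against the external background and 8.5 in HEK293 with any fold. Without 1 HEK293 replicate the other is assumed to vary like the other groups. Leaving out 1 replicate gave 15 to 19 gene calls (22 with all), 8 to 12 and 8 to 13 PRPF8 windows, 1 to 2 and 1 to 3 SF3B4 windows, 3 to 9 calls against other introns, and 0 to 1, 4 to 9 and 1 to 3 line differences in genes, PRPF8 and SF3B4 windows. It gave 6 to 13 enriched PRPF8 peaks in HEK293, 2.5 to 6 and 2 to 9 of SF3B4, and -0.083 to 1.73 for the line difference at CLK2 intron 4. With no replicate block, 20 gene calls remained in number: DDX3 on CLK1 in HEK293 (adjusted p = 0.055) and EIF3G on CLK2 in K562 (0.0503) were lost, and no other count changed.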
